A study of Mus musculus with 9 samples.

Results

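The amino acid transporters examined here are the members of the solute carrier families Slc1, Slc3, Slc7, Slc36, Slc38 and Slc43, together with the glycine transporter Slc6a9. They were found by their gene symbols in the array annotation, whatever their values. The rule gave 43 genes, read by 91 probe sets (groups of short oligonucleotides that report 1 transcript), of 18193 genes and 34945 probe sets with a single symbol. Of the 43 genes, 41 encode transporters. The other 2, Slc7a6os and Slc36a1os, are opposite strand genes that carry a transporter's name and were kept because the rule took them.

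Neural stem cells of the adult mouse olfactory bulb (aOBSC) were grown as floating neurospheres with FGF-2 and EGF, the mitogens that keep them dividing, at 20 ng/ml each. The factors were added daily in the control cultures (Ctr), at 2-day intervals in C2 and at 4-day intervals in C4. All cultures thus received both factors, and the conditions differed in how often. The paper states that the medium was not changed and that C4 cultures had been longest without added factors at harvest. It also reports fewer cells in C2 and C4 than with daily addition. Interval, time since the last addition, total factor added and cell number therefore cannot be told apart here. After 3 passages with daily addition and 2 in the condition, RNA was taken at 7 days in culture and hybridised to 3 arrays per condition, 9 in all. The design text calls the 3 arrays of a condition biological replicates. The mice used for the arrays were 7 and 15 months old, and the sources do not tell which age belongs to which array. A p-value here thus reflects only how much these arrays vary. Neurospheres mix stem cells with their progeny, and in such bulk RNA fewer cells of a type and less RNA per cell cannot be told apart.

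All values are log2 GCRMA values as deposited, so that a difference of 1 equals a 2-fold change, and levels of different probe sets were not compared. Conditions were compared with limma over 45037 probe sets. A call is an adjusted p (Benjamini-Hochberg over all probe sets) under 0.05. The upper quartile of an array lay between 6.46 and 6.596, and 40.4% to 40.8% of its probe sets read over 4. A condition mean under 4 is termed near the floor, where a fold is not measured well. Among the marker lists, all 8 endothelial, 9 of 10 microglial and 8 of 10 neuronal genes were near the floor, whereas all 9 neural stem and progenitor genes measured were above it. Both comparisons with Ctr use the same 3 Ctr arrays.

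Amino acid transporters move amino acids across the plasma membrane or out of lysosomes. Light chains of the Slc7 family, such as the leucine carrier Slc7a5 and the cystine-glutamate exchanger Slc7a11, must pair with the heavy chain Slc3a2 to reach the cell surface, and the leucine that they bring in is one of the signals read by mTORC1. When amino acids run short, the kinase GCN2 (Eif2ak4) raises translation of the transcription factor ATF4, which together with C/EBP proteins induces many of these carriers. Glutamate transporters of the Slc1 family are better known from astrocytes, which use them to clear the transmitter.

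The C/EBP-ATF response element is the sequence through which ATF4 acts, and Slc7a11 is a textbook gene that carries it. Among the genes called, its promoter was the only one of the 7 with a RefSeq entry that held this element in the window searched, and it is shown with that of Slc3a2, the chain that it pairs with. Each runs from 250 bases before the start site to 50 bases after it, on the gene's strand (GRCm38.p6). The capitals mark matches to TGATGNAA on either strand.
Slc7a11, chr3:50443564-50443863, minus strand: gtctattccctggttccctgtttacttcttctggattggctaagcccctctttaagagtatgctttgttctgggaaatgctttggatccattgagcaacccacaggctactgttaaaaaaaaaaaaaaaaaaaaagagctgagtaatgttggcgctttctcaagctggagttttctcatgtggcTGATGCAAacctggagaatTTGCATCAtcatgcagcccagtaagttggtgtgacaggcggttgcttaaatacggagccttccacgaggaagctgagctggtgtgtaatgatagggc
Slc3a2, chr19:8713848-8714147, minus strand: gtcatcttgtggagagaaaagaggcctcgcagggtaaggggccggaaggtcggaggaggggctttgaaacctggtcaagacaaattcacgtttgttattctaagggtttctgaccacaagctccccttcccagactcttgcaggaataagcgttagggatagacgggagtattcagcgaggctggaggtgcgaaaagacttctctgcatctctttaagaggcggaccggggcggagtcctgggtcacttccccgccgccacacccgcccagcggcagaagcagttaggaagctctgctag
In Slc7a11 the copies began at -66 and -47 from the start site and lay on opposite strands, and the Slc3a2 window held none.

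Promoter entries were found for 32 of the 43 genes (45 entries), and Slc7a5 and Slc7a2 had none. The C/EBP-ATF element was present in 3 of these genes, Slc7a11, Slc1a4 (at -4) and Slc7a7, or 8.89% of the member entries, against 3.97% of all 32851 promoters. The antioxidant response element core TGACNNNGC, which NRF2 binds, was present in 9 of the 45 member entries (7 genes, among them Slc7a1, Slc6a9 and Slc38a2), against 12.4% of all promoters. The E-box CACGTG was present in 15.6% (7 genes), against 7.15%. All motifs were searched on both strands. A match describes the letters of the window, not a site in use.

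Of the 91 probe sets, 44 (20 genes) reached a mean of 4 in at least 1 condition. The other 47 did not, and for 23 genes this held for every probe set, so their levels are not known from these arrays. These genes were Slc1a5, Slc1a6, Slc1a7, Slc3a1, Slc7a3, Slc7a4, Slc7a7, Slc7a8, Slc7a9, Slc7a10, Slc7a12, Slc7a13, Slc7a14, Slc7a15, Slc36a1, Slc36a1os, Slc36a2, Slc36a3, Slc38a1, Slc38a4, Slc38a5, Slc43a1 and Slc43a3. They include the glutamine carriers Slc1a5, whose probe set 1416629_at read 2.91 to 3.76 over the 9 arrays, and Slc38a1, whose probe set 1454764_s_at read 2.27 to 3.61. None of the 47 probe sets was called in any comparison with all 9 arrays. Without C4 replicate 1, the Slc38a1 probe set was called higher in C4 (1.10 with respect to Ctr, adjusted p = 0.00485).

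In C4, 8 of the 91 probe sets rose with respect to Ctr (8.79%) and 6 fell (6.59%), while 3.78% of all probe sets rose and 2.51% fell. In C2, 6 rose (6.59%) and none fell, while 1.13% of all probe sets rose and 0.577% fell. At an unadjusted p under 0.05 the members numbered 26 in C4 (28.6%), 17 in C2 (18.7%) and 27 in C4 with respect to C2 (29.7%), against 15.9%, 10.3% and 14.1% of all probe sets. The count in C2 was 3 without C2 replicate 3, C4 replicate 2, Ctr replicate 1 or Ctr replicate 2. When C4 was compared with C2 directly, 6 were higher and 7 lower (6.59% and 7.69%), against 2.86% and 2.39% of all probe sets. Of the members, 2 in C4, 0 in C2 and 6 in C4 with respect to C2 differed by at least 1, against 0.693%, 0.0844% and 0.673% of all probe sets. All of these calls came from 9 genes. The median difference of the 91 probe sets was 0.0 in C4 and 0.004 in C2, beside 0.0 in both over all probe sets tested. These medians rest mostly on probe sets near the floor.

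The calls were not alike across families. In C4, the Slc1 family had 5 higher probe sets of 21, from 2 of its 7 genes, and none lower, and both probe sets of Slc6a9 rose. The Slc7 family (16 genes) had 1 higher (1 gene) and 3 lower (2 genes) of 29, and the Slc3 family had 1 lower of 2. The Slc38 family had 2 lower of 27, both of 1 gene. No probe set of the Slc36 family (5 probe sets) or of the Slc43 family (5) was called in any comparison, and in each family only 1 gene was over the floor. In C2 the calls lay in Slc7 (3 of 29, from 2 genes), Slc1 (1), Slc3 (1) and Slc6a9 (1).

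**Figure D1:**
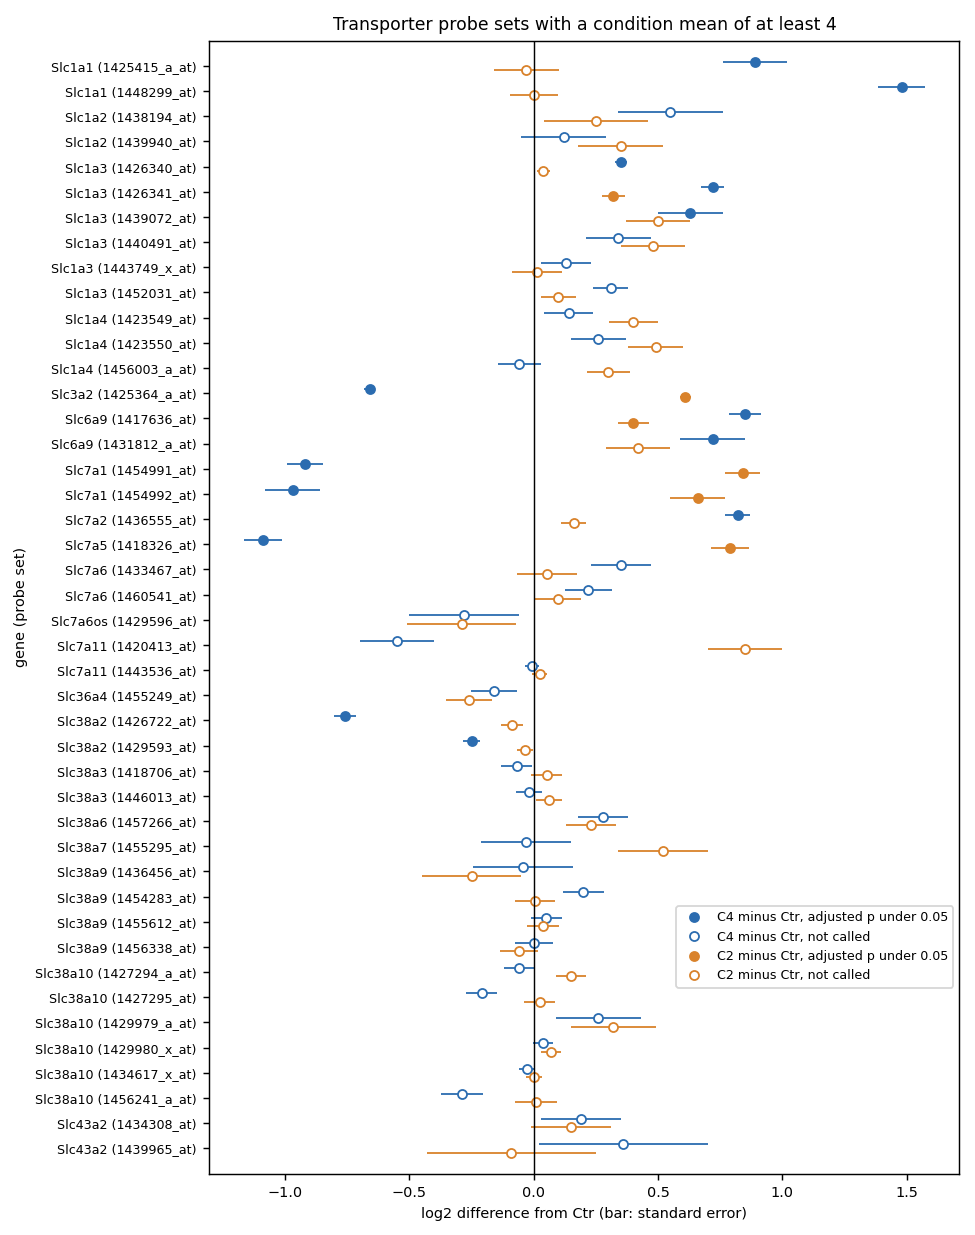
Log2 difference from Ctr (x axis) of the 44 probe sets with a condition mean of at least 4 (y axis), for C4 (blue) and C2 (orange). Bars are standard errors and filled points are called at an adjusted p under 0.05. The probe sets of Slc3a2, Slc7a1 and Slc7a5 lie left of 0 in C4 and right of 0 in C2, whereas those of Slc38a2 were called in C4 alone.

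The heavy chain Slc3a2 and the carriers Slc7a5 and Slc7a1 fell in C4 and rose in C2 with respect to Ctr, and each was called in all 3 comparisons. Slc3a2 (chr19:8706882-8723369, probe set 1425364_a_at) read 11.09, 11.02 and 11.03 on the Ctr arrays, 11.64, 11.65 and 11.69 on the C2 arrays and 10.36, 10.41 and 10.40 on the C4 arrays. The 3 conditions did not overlap, with C2 on top and C4 at the bottom. This is the gene's only probe set, and its suffix marks a type that can read more than 1 transcript. The difference was -0.66 in C4 (standard error 0.023, adjusted p = 8.34e-05) and 0.61 in C2 (adjusted p = 5.59e-04), and C4 was 1.27 below C2 (-1.27, adjusted p = 4.77e-06).

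Slc7a5 (chr8:121881146-121907686, probe set 1418326_at), which imports leucine and other large neutral amino acids, had the largest fall among the members. It read 9.36, 9.31 and 9.24 in Ctr, 10.09, 10.04 and 10.14 in C2 and 8.12, 8.13 and 8.39 in C4. No array of one condition reached into another. In C4 the difference was -1.09 (standard error 0.077, adjusted p = 7.73e-04), equal to 0.471 of the Ctr level, and in C2 it was 0.79 (adjusted p = 0.00944), equal to 1.72-fold. C4 was at 0.273 of the C2 level (difference -1.87, adjusted p = 8.15e-05). With robust variances the call in C2 was lost (adjusted p = 0.0615).

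Slc7a1 encodes the cationic amino acid transporter CAT-1, which carries arginine and lysine and needs no heavy chain. Its probe set 1454991_at (gene at chr5:148327410-148399904) read 9.86, 9.98 and 10.04 in Ctr, 10.82, 10.71 and 10.88 in C2 and 9.02, 8.96 and 9.15 in C4. Here too the conditions were apart on every array. The differences were -0.92 in C4 (standard error 0.072, adjusted p = 0.00101), 0.84 in C2 (adjusted p = 0.00626) and -1.76 for C4 with respect to C2 (adjusted p = 7.71e-05). The further probe set 1454992_at gave -0.97 (adjusted p = 0.00353), 0.66 (adjusted p = 0.039) and -1.63 (adjusted p = 4.70e-04). The call of this probe set in C2 was lost on leaving out C2 replicate 1, 2 or 3, C4 replicate 2, or Ctr replicate 1, 2 or 3, where adjusted p lay between 0.076 and 0.134.

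Slc7a11, the exchanger that brings in cystine for glutathione synthesis, was called only between C4 and C2. Probe set 1420413_at (gene at chr3:50364936-50499087) read 5.83, 5.90 and 5.90 in Ctr, 6.43, 6.91 and 6.83 in C2 and 5.55, 5.28 and 5.15 in C4. Its arrays were thus ordered like those of Slc3a2, with no overlap, but the spread within C2 and C4 was wider. C4 was 1.40 below C2 (-1.40, standard error 0.15, adjusted p = 0.00376). The differences from Ctr did not pass, at -0.55 in C4 (adjusted p = 0.102) and 0.85 in C2 (adjusted p = 0.0534). Both were called without C2 replicate 1, the lowest of the C2 arrays (adjusted p = 0.0464 in C4 and 0.0374 in C2). The further probe set 1443536_at read between 4.58 and 4.67 on all 9 arrays and did not follow.

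**Figure D2:**
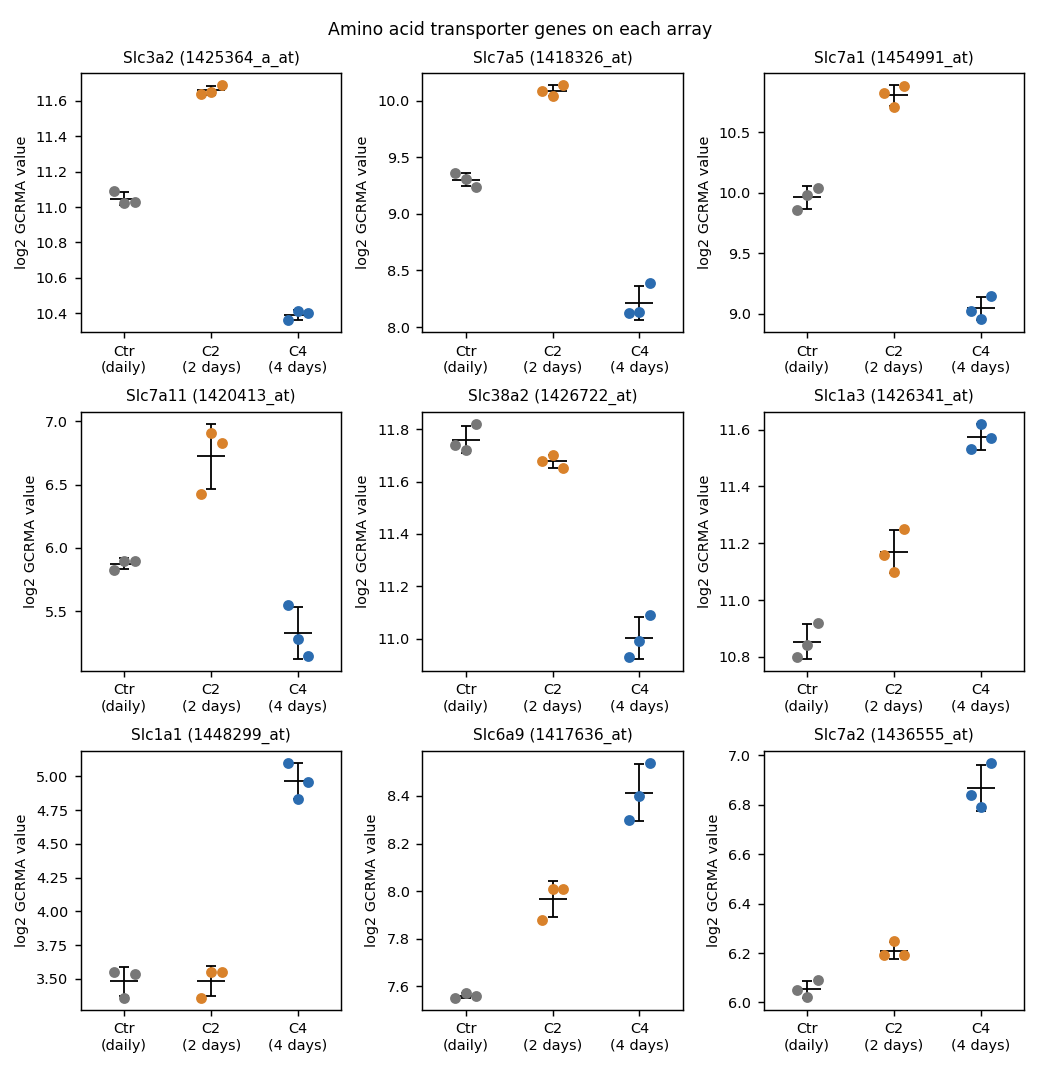
Log2 GCRMA value (y axis) of 1 probe set of each called gene on each of the 9 arrays, for Ctr (grey), C2 (orange) and C4 (blue). The probe set shown is the one called in most comparisons and, among equals, that of highest mean. Slc1a3 is thus shown by 1426341_at, whereas its probe set of highest mean, 1452031_at, was not called. Horizontal bars are means and whiskers are SD (n = 3), and each panel has its own scale. In the panels of Slc3a2, Slc7a5, Slc7a1 and Slc7a11 the C2 arrays are on top and the C4 arrays at the bottom, whereas Slc1a3 and Slc6a9 are lowest in Ctr and highest in C4.

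Slc38a2 fell in C4 with respect to both other conditions and was not called in C2. It encodes SNAT2, a sodium-coupled carrier of alanine, glutamine and other small neutral amino acids. Probe set 1426722_at (gene at chr15:96687392-96699728) read 11.74, 11.72 and 11.82 in Ctr, 11.68, 11.70 and 11.65 in C2 and 10.93, 10.99 and 11.09 in C4. The C4 arrays were all below the others, while the C2 arrays lay just under the Ctr arrays. The fall in C4 was 0.76 with respect to Ctr (-0.76, standard error 0.044, adjusted p = 3.63e-04) and 0.67 with respect to C2 (-0.67, adjusted p = 5.19e-04), and the C2 difference was -0.088 (adjusted p = 0.653). A further probe set, 1429593_at, was lower in C4 by less, at -0.25 (adjusted p = 0.00752) with respect to Ctr and -0.22 (adjusted p = 0.0142) with respect to C2. The last of these was lost on leaving out C2 replicate 2 (adjusted p = 0.0562), C4 replicate 1 (0.0502) or C4 replicate 3 (0.0527).

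The glutamate transporter Slc1a3 (GLAST), an astroglial and neural stem cell gene at chr15:8634124-8710807, had 6 probe sets, and 3 of them were higher in C4. Probe set 1426341_at read 10.80, 10.84 and 10.92 in Ctr, 11.16, 11.10 and 11.25 in C2 and 11.53, 11.62 and 11.57 in C4. The arrays of the 3 conditions did not overlap, and the level was higher the longer the interval. The difference was 0.72 in C4 (standard error 0.047, adjusted p = 6.04e-04), 0.32 in C2 (adjusted p = 0.0325) and 0.40 for C4 with respect to C2 (adjusted p = 0.00548). The call in C2 was lost on leaving out any 1 array other than Ctr replicate 3, with adjusted p between 0.0506 and 0.114.

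The other probe sets of Slc1a3 showed smaller or less even changes. Probe set 1426340_at read 12.17, 12.09 and 12.19 in C4, against 11.79, 11.82 and 11.79 in Ctr (0.35, adjusted p = 8.02e-04), and in C2 it differed by 0.039 (adjusted p = 0.735). Probe set 1439072_at, at 4.80, 4.44 and 4.41 in C4 and 4.09, 3.91 and 3.75 in Ctr, was called in C4 (0.63, adjusted p = 0.0356). That call was lost on leaving out C2 replicate 1, 2 or 3, C4 replicate 2 or 3, or Ctr replicate 2 or 3 (adjusted p from 0.0539 to 0.115). The probe set of highest mean, 1452031_at, read 12.39, 12.43 and 12.42 in C4 and 11.98, 12.25 and 12.10 in Ctr. Its difference of 0.31 did not pass (adjusted p = 0.0584), nor did those of 1440491_at (0.34) and 1443749_x_at (0.13). Without Ctr replicate 2, 1452031_at was called (adjusted p = 0.0276), as was 1440491_at without C2 replicate 1 (adjusted p = 0.030). All 6 differences were positive in C4, between 0.13 and 0.72.

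**Figure D3:**
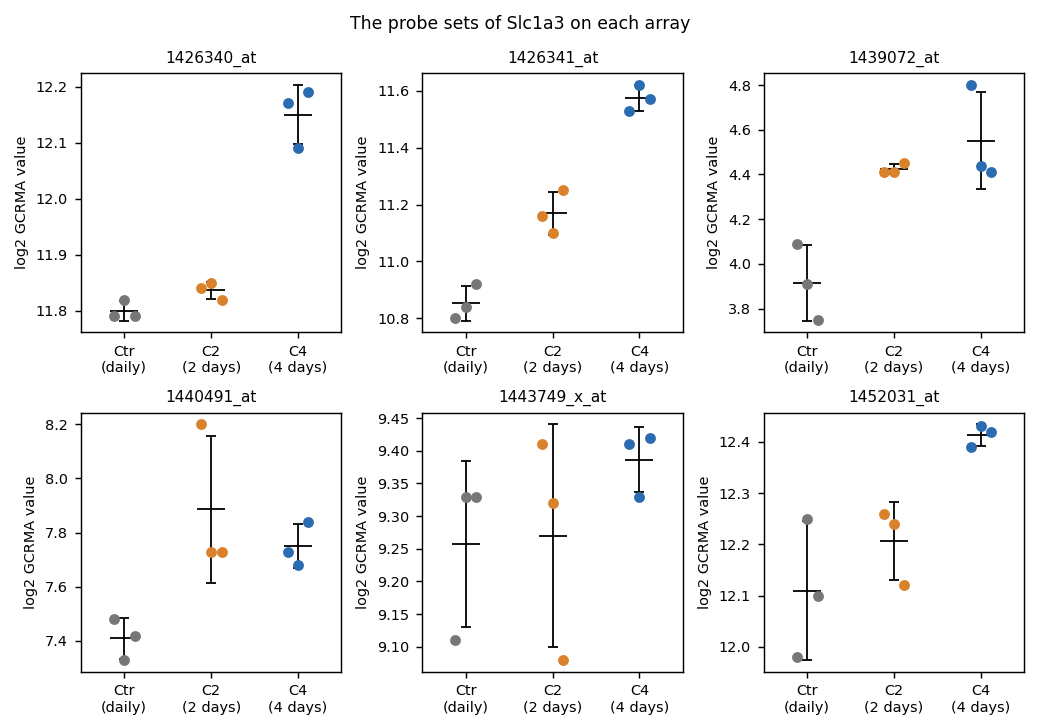
Log2 GCRMA value (y axis) of the 6 probe sets of Slc1a3 on each array of Ctr (grey), C2 (orange) and C4 (blue), with means and SD (n = 3). Each panel has its own scale. The C4 arrays lie above all Ctr arrays in 5 of the 6 panels, the exception being 1443749_x_at.

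Slc1a1 (chr19:28835135-28913960), the glutamate and cysteine transporter EAAC1, was near the floor in both other conditions and above it in C4. Probe set 1448299_at read 3.55, 3.36 and 3.54 in Ctr, 3.36, 3.55 and 3.55 in C2 and 5.10, 4.83 and 4.96 in C4. Ctr and C2 overlapped, whereas C4 stood apart. The difference in C4 was 1.48 with respect to Ctr (standard error 0.095, adjusted p = 5.38e-04) and 1.48 with respect to C2 (adjusted p = 4.55e-04), with a fold that is not measured well. Probe set 1425415_a_at gave 0.89 (adjusted p = 0.011) and 0.92 (adjusted p = 0.0108). A further probe set, 1460386_a_at, was near the floor throughout.

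The remaining transporter of synaptic glutamate that was over the floor, Slc1a2 (GLT-1, chr2:102658239-102790784), was not called. Probe set 1438194_at read 8.82, 8.84 and 9.60 in C4 and 8.42, 8.55 and 8.62 in Ctr, a difference of 0.55 (adjusted p = 0.246). The C4 arrays were above the Ctr arrays, but replicate 3 was far above the others of C4, and without it the difference was 0.30 and was called (adjusted p = 0.0494). Probe set 1439940_at gave 0.12 (adjusted p = 0.978). Slc1a4 (chr11:20302180-20332713), which carries alanine, serine and cysteine, was not called either. Its 3 probe sets differed by 0.30 to 0.49 in C2, all C2 arrays being above those of Ctr, and by -0.058 to 0.26 in C4. With dim probe sets left out, 1423549_at and 1423550_at were called higher in C2 (adjusted p = 0.0313 and 0.0201) and 1456003_a_at was called lower in C4 than in C2 (-0.36, adjusted p = 0.0144). With arrays centred on the median this held for 1423550_at (adjusted p = 0.0244) and 1456003_a_at (adjusted p = 0.0305), and 1456003_a_at was also called without Ctr replicate 2 (adjusted p = 0.0434).

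The glycine transporter Slc6a9 (GlyT1, chr4:117835258-117869305), a glial gene that removes glycine from the extracellular space, was higher the longer the interval. Probe set 1417636_at read 7.55, 7.57 and 7.56 in Ctr, 7.88, 8.01 and 8.01 in C2 and 8.30, 8.40 and 8.54 in C4. No arrays of different conditions overlapped. The difference was 0.85 in C4 (standard error 0.063, adjusted p = 8.75e-04), 0.40 in C2 (adjusted p = 0.0374) and 0.45 for C4 with respect to C2 (adjusted p = 0.0105). The call in C2 was lost on leaving out C2 replicate 1, 2 or 3, C4 replicate 2, or Ctr replicate 1, 2 or 3 (adjusted p from 0.0654 to 0.124). Probe set 1431812_a_at rose by 0.72 in C4 (adjusted p = 0.0218), a call lost on leaving out C4 replicate 2 or 3 or Ctr replicate 1 or 3 (adjusted p from 0.0603 to 0.0792).

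Slc7a2 (chr8:40862341-40922070) encodes CAT-2, the second cationic carrier of the Slc7 family to be measured over the floor, and it moved opposite to Slc7a1 in C4. Probe set 1436555_at read 6.05, 6.02 and 6.09 in Ctr, 6.19, 6.25 and 6.19 in C2 and 6.84, 6.79 and 6.97 in C4. All C4 arrays were above the rest. The difference was 0.82 in C4 (standard error 0.051, adjusted p = 4.58e-04) and 0.66 with respect to C2 (adjusted p = 9.49e-04), and 0.16 in C2 (adjusted p = 0.281). The other 3 probe sets of Slc7a2 were near the floor.

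Markers of several cell types moved in the same comparison as Slc1a3, Slc1a1, Slc6a9 and Slc7a2. In C4, 7 of 10 astrocyte markers rose and none fell, with a summed level of 14.41 to 14.47 on the C4 arrays, against 14.15 to 14.18 in Ctr. The defining markers Gfap and Gjb6 were near the floor in all conditions on these arrays. By immunostaining of aOBSC neurospheres, the paper reports a larger proportion of GFAP-positive cells in C4 than in controls. Of the oligodendrocyte lineage markers, 5 of 9 rose in C4 and none fell (summed level 14.54 to 14.59, against 14.28 to 14.38 in Ctr), with Sox10, Mbp and Mog near the floor. Without Ctr replicate 1, Ctr replicate 3 or C4 replicate 2, 3 of the 9 were called. In C2, where Slc1a3 (1426341_at) and Slc6a9 (1417636_at) were called higher, no astrocyte marker was called higher. Aldh1l1 and Ndrg2 were called lower, and the summed level was 14.08 to 14.13 in C2. Without C2 replicate 3 or Ctr replicate 1, 2 or 3, 1 of these 2 was called lower. On all C2 arrays S100b lay above Ctr (0.57, adjusted p = 0.0845) and Aqp4 below it (-0.45, adjusted p = 0.12), neither being called. No oligodendrocyte lineage marker was called higher in C2. Called lower were 2, Gpr17 (-1.71, adjusted p = 0.0272) and Cnp (-0.29, adjusted p = 0.0236), and the summed level was 14.26 to 14.33 in C2. Neither was called without C2 replicate 1 or Ctr replicate 3, and 1 of them was called on leaving out any other array except C4 replicate 1, where both were. By quantitative RT-PCR of aOBSC, the paper reports the opposite for Gpr17, which was upregulated in C2.

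Of the neural stem and progenitor markers, 4 of 9 rose in C4, among them the EGF receptor gene Egfr (0.83), Pax6 (0.57) and Fabp7 (0.34), and 1, Vim, fell (-0.40, adjusted p = 0.0256). The summed level overlapped between C4 and Ctr, between 15.90 and 16.01 over their arrays, and none was called in C2. On leaving out 1 array, 3 or 4 were called higher in C4, and the call of Vim was held only without C4 replicate 1 or Ctr replicate 3. Cd68, the only microglial marker over the floor, averaged 5.10 in C4 and 7.82 in Ctr (-2.72, adjusted p = 8.43e-05). The summed level of the microglial list was 6.41 to 6.51 in C4, against 7.99 to 8.26 in Ctr. That sum follows Cd68 alone and does not measure microglia, as all other markers of the list were near the floor. The part of these cell types in the transporter values of C4 was not tested.

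The other members over the floor were not called in any comparison with all 9 arrays. Slc7a6 (y+LAT2), another light chain of Slc3a2, read 6.68 to 7.43 over the 9 arrays with probe set 1433467_at and differed by 0.35 in C4 (adjusted p = 0.209). Slc38a3, which moves glutamine in and out of astrocytes, read 10.00 to 10.26 (1418706_at). Slc38a9, a lysosomal carrier that reports arginine to mTORC1, read 6.27 to 6.53 (1456338_at) and differed by 0.0013 in C4. Slc38a7, a lysosomal glutamine carrier, read 5.08 to 6.06 (1455295_at), with a difference of 0.52 in C2 (adjusted p = 0.363) and -0.55 for C4 with respect to C2 (adjusted p = 0.213).

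Slc38a10 had 6 probe sets over the floor, and that of highest mean (1456241_a_at) read 9.53 to 10.07, with a difference of -0.29 in C4 (adjusted p = 0.128). Slc38a6 (1457266_at) read 5.09 to 5.66 and Slc36a4 (1455249_at), of the proton-coupled family, 6.76 to 7.24. Slc43a2, a carrier of large neutral amino acids that works without Slc3a2, read 4.99 to 5.56 (1434308_at), and the opposite strand gene Slc7a6os read 5.37 to 6.27 (1429596_at). Some of these genes passed under other settings. With dim probe sets left out, 1456241_a_at of Slc38a10 was called lower in C4 (adjusted p = 0.0275), as it was with arrays centred on the median (adjusted p = 0.0467), and 1455295_at of Slc38a7 was called lower in C4 than in C2 (adjusted p = 0.0493). The probe sets 1427294_a_at and 1427295_at of Slc38a10 gained a call in the same way, with differences of -0.21 to -0.23. Without Ctr replicate 3, 1457266_at of Slc38a6 was called higher in C4 (0.38, adjusted p = 0.0454), as was 1454283_at of Slc38a9 without C4 replicate 1 (0.29, adjusted p = 0.0201). A missed call does not show that there was no difference.

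Genes of the amino acid response were mostly lower in C4 and mostly higher in C2 with respect to Ctr, as Slc3a2, Slc7a5 and Slc7a1 were. This list of ATF4, its partners and its targets had 22 measured genes. In C4, 15 fell and none rose, with a median difference of -0.66, whereas in C2, 14 rose (Fgf21 among them near the floor) and 1 (Ddit4) fell, with a median of 0.55. C4 was lower than C2 for 19 genes, among them Atf4 itself, and higher for none (median -0.95). All measured probe sets had a median difference of 0.0 in each comparison, but most read under 4. Over the 18380 with a value over 4 on at least 3 arrays, the medians were 0.037 in C4, 0.019 in C2 and 0.0099 for C4 with respect to C2. When these alone were tested, 25.6%, 9.93% and 21.3% were called in either direction. The number of list genes called higher in C2 depended on the arrays used. It was 8 without C2 replicate 1 or Ctr replicate 2, and 9 without C2 replicate 3, Ctr replicate 1 or Ctr replicate 3.

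Among these genes, the smallest p in C4 belonged to Cebpg, a C/EBP partner of ATF4, with a mean of 8.04 in C4 and 8.75 in Ctr (-0.71, adjusted p = 1.02e-04). Asns, which makes asparagine, averaged 11.46 in Ctr, 12.06 in C2 and 10.60 in C4, a difference of -0.86 in C4 (adjusted p = 1.43e-04) and 0.61 in C2 (adjusted p = 0.00218). Nupr1, a stress-induced nuclear protein, fell by 1.11 in C4 (-1.11, adjusted p = 2.09e-04) and rose by 1.01 in C2 (adjusted p = 0.00156). Ddit4, an inhibitor of mTORC1, went the other way in C2, where it differed by -0.21 (adjusted p = 0.0126), and it fell by 0.40 in C4 (-0.40, adjusted p = 3.63e-04). Atf4 rose in C2 (0.46, adjusted p = 0.0243), while its C4 difference was -0.22 (adjusted p = 0.117). ATF4 is controlled largely at translation, which the arrays do not measure.

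**Figure D4:**
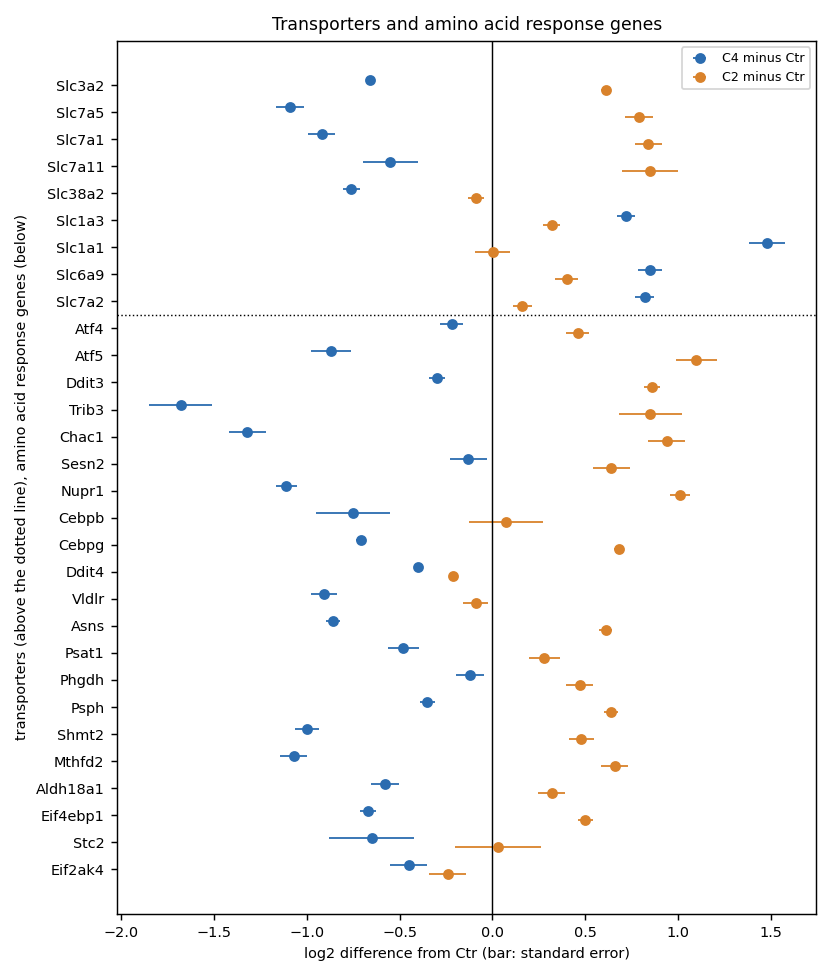
Log2 difference from Ctr (x axis) in C4 (blue) and C2 (orange) of 1 probe set of each of the 9 called transporter genes (above the dotted line) and of the 21 amino acid response genes over the floor (below it), with standard errors. Most response genes lie left of 0 in C4 and right of 0 in C2, as Slc3a2, Slc7a5 and Slc7a1 do, whereas Ddit4, Vldlr and Eif2ak4 lie left of 0 in both.

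Of 30 genes that sense amino acids upstream of mTORC1, 28 of them over the floor, 3 were higher and 3 lower in C4. Of all probe sets, 3.78% rose and 2.51% fell in C4. Where only probe sets over 4 on at least 3 arrays were tested, 25.6% were called in C4 and 9.93% in C2, in either direction. The counts are thus not read as a trait of this list. In C4 the GTPase gene Rragc rose by 0.33 (adjusted p = 8.49e-04) and Sesn3 by 0.59 (adjusted p = 0.00476), while Lamtor5, a part of the Ragulator complex, fell by 0.48 (-0.48, adjusted p = 0.00287) and Flcn, which encodes folliculin, by 0.39 (-0.39, adjusted p = 0.00927). In C2, Rragc and the leucine sensor Sesn2 were higher (2 of 30) and none was lower, against 1.13% and 0.577% of all probe sets. The median difference of the list was 0.029 in C4 and 0.041 in C2.

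Of 23 further transporters of amino acids and related substrates, 3 rose and 1 fell in C4. The GABA transporter Slc6a11 averaged 9.08 in C4 and 7.60 in Ctr (1.48, adjusted p = 0.00177), and the peptide transporter Slc15a2 averaged 11.18 in C4 and 10.31 in Ctr (0.87, adjusted p = 7.16e-06). The mitochondrial glutamate carrier Slc25a18 rose by 0.32 (adjusted p = 0.0147), and the aspartate-glutamate carrier Slc25a12 fell by 0.10 (-0.10, adjusted p = 0.00993). Slc15a2 was the only one called in C2 (0.20, adjusted p = 0.00614). Enzymes of glutamate and glutamine had 2 of 10 higher, Glud1 (0.48, adjusted p = 0.00194) and Gpt2 (0.43, adjusted p = 0.0113), and 2 lower, Aldh18a1 (-0.58, adjusted p = 0.00679) and Gad1 (-0.37, adjusted p = 0.0152). In C2, 1 of the 10 was higher, Got1.

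The NRF2 pathway, which also acts on Slc7a11, had 3 of 10 genes lower and 1 higher in C4. None was called in C2 with limma. Slc7a11 is itself 1 of the 10, so the list is not separate from the transporters. Of all probe sets, 2.51% fell and 3.78% rose in C4. All 10 genes were over the floor, and where only probe sets over 4 were tested, 25.6% were called in either direction. Nfe2l2, which encodes NRF2, averaged 10.40 in C4 and 10.87 in Ctr (-0.48, adjusted p = 0.00248). Gclc, which encodes a subunit of the first enzyme of glutathione synthesis, fell by 0.72 (-0.72, adjusted p = 0.00749) and Hmox1, which encodes heme oxygenase 1, by 0.46 (-0.46, adjusted p = 0.0111). Keap1, the inhibitor of NRF2, was higher by 0.29 (adjusted p = 0.0499). Of 8 measured genes from a list of regulators of amino acid transporters and related genes, 6 were over the floor, Mycn and Cdo1 being near it. None of the 8 was called in C4 or C2 with respect to Ctr, Myc being at -0.26 in C4 (adjusted p = 0.08). Only the kinase gene Sgk1 was higher in C4 than in C2 (0.26, adjusted p = 0.0446).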

How the data were processed

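RNA of aOBSC neurospheres was measured on Affymetrix Mouse Genome arrays. The authors normalised the arrays with GCRMA (version not given in the sources used here), which corrects background by probe sequence, applies quantile normalisation and summarises each probe set, and deposited them as log2 values. Such a common distribution can hide a shift of all transcripts. All 9 arrays were used, and 64 of 45101 probe sets, Affymetrix controls, were left out. Arrays have no count depth, and their number limits the precision.

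Conditions were taken from the sample titles. They were compared in 1 fit of all 9 arrays with limma 3.58.1 in R 4.3.3 (lmFit, and eBayes with an intensity trend; 6 residual degrees of freedom), which was tested on simulated data, with Benjamini-Hochberg adjustment over 45037 probe sets in each of 3 comparisons. The sources do not say whether replicate numbers pair the samples, and they were not taken to do so. Gene symbols came from the platform annotation (932 probe sets with several symbols were left out, 1 of them naming a member), and gene positions and promoter sequences from RefSeq on GRCm38. Of the probe sets of a list gene, that with the highest mean was used.

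The members, the lists and the tests were chosen with earlier results of these data known. Named were all members called in any comparison, all other members over the floor with their range, and for each list up to 4 genes by ascending p in C4. Atf4, Sesn2, Got1, Sgk1, Aldh1l1, Ndrg2, S100b, Aqp4, Gpr17, Cnp and the floor-level markers were named outside this rule, after their values were seen. Alternatives were another scaling or normalisation, a filter on dim probe sets, no trend, robust variances, a block, fits of 2 conditions, no probe sets of the types _a_at, _s_at and _x_at, means over the probe sets of a gene, and leaving out each array.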

Additional observations from a re-analysis of the deposited data

Results flagged for a closer look

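In 3 genes both comparisons with Ctr were called, in opposite directions. A call between C4 and C2 was part of the rule that picked them, so it adds no separate support. C4 was below C2 by a log2 difference of -1.27 for Slc3a2, -1.87 for Slc7a5, and -1.76 and -1.63 for the probe sets 1454991_at and 1454992_at of Slc7a1, each called by limma, and the C4 and C2 arrays did not overlap. The call of 1454992_at in C2 was among those lost when 1 array was left out.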

How the results depend on the processing

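The number of members called in C4 with respect to Ctr (14) lay between 11 and 17 over all alternatives, and that of C4 with respect to C2 (13) likewise between 11 and 17. The number called in C2 (6) was less stable. It was 11 with dim probe sets left out, where fewer probe sets are tested, 2 with the replicate number as a block and 2 with robust variances, and 3 to 5 on leaving out 1 array. It was 3 without C2 replicate 3, C4 replicate 2, Ctr replicate 1 or Ctr replicate 2. Slc3a2 and the probe set 1454991_at of Slc7a1 kept their C2 calls in every fit that held them. Same-numbered arrays deviated together only weakly (correlations from -0.0426 to 0.126). The numbers were therefore not taken to pair samples, although so few arrays cannot exclude shared cultures. The replicate block gave 14 calls in C4 with respect to Ctr and 14 in C4 with respect to C2, while Slc7a5 was not called in C2 (adjusted p = 0.0527). Over 33 calls of single probe sets, 513 of 572 alternative values kept direction and side of the threshold, 59 lost the call and 0 turned round. Averaging the probe sets of a gene gave smaller differences for several genes: in C4, Slc7a2 gave 0.24, Slc1a1 0.81 and Slc38a2 -0.29, and Slc7a11 gave -0.72 with respect to C2. Slc3a2 has a single probe set, of a type that can read more than 1 transcript of a gene, so it has no value where the types _a_at, _s_at and _x_at were left out. Slc7a11 was also called in C2 and in C4 with respect to Ctr with arrays centred on the median, with dim probe sets left out and without C2 replicate 1. The causes were not tested. Levels near the floor limit what can be said of 23 of the 43 genes.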
